A study of Mus musculus with 79 samples.

Results

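The genes described here are the chromatin-modifying enzymes and chromatin remodelers of the mouse, chosen by gene symbol: 77 of the 25899 genes in the table. They are 11 histone deacetylases (Hdac), 7 sirtuins (Sirt), 14 histone lysine demethylases (Kdm), 9 SET domain genes (Setd), 4 DNA methyltransferase genes (Dnmt), 3 Tet enzymes, 7 bromodomain proteins (Brd), 9 Chd remodelers and 13 subunits or relatives of the SWI/SNF remodelers (Smarc). Their ribosome-bound mRNA was measured in 79 libraries from 5 groups of neurons: 15 libraries of D1 and 16 of D2 neurons from the dorsal striatum, 15 of D1 and 14 of D2 neurons from the ventral striatum, and 19 of D1 neurons from the prefrontal cortex. All groups came from mice on a C57BL/6J background, heterozygous for a BAC transgene that put the ribosomal protein L10a, tagged with eGFP, under the promoter of the D1a or the D2 dopamine receptor gene. No treatment and no age were given in the labels. Per the labels, each library pooled tissue from 3 mice, of both sexes where the labels are complete, and nothing says that libraries of different regions came from different mice, so p-values measure the spread between these pools.

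DNA in the nucleus is wrapped around histones, and the enzymes of these families add, remove or read marks on both. Histone deacetylases and sirtuins take acetyl groups off proteins, Kdm enzymes take methyl groups off histone lysines, Setd genes encode proteins with a methyltransferase domain, and Brd proteins bind acetylated histones. Dnmt enzymes put methyl groups on cytosine and Tet enzymes oxidise them, the start of active demethylation, while Chd and SWI/SNF complexes use ATP to move nucleosomes. In neurons, which no longer divide, these proteins are studied for their part in activity-dependent transcription and in lasting responses to drugs of abuse, and mutations in several of their genes cause neurodevelopmental disorders.

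The pulled-down RNA carried the markers of the labelled neurons. The summed level of 5 D1 projection neuron markers was 555 to 836 CPM (counts scaled by the authors to a common library total, which is larger than the reads in genes) in D1 dorsal striatum and 485 to 703 CPM in D1 ventral striatum, against 19.7 to 98.8 CPM in the D2 groups. In D1 prefrontal cortex it was 29.5 to 124 CPM, and Drd1a itself had a median of 16.7 CPM there, close to its 12.1 CPM in D2 dorsal striatum, so the cortical libraries overlapped D2 libraries in this marker. Depth was 7.35 to 30.8 M reads in genes per library (M, mega, median 17.5 M), the 77 genes together held between 0.654% and 0.888% of those reads, and 4 libraries agreed less with their group than the others (D1 dorsal striatum replicates 4 and 13, D2 dorsal striatum replicate 6, D1 prefrontal cortex replicate 10). In 7 libraries labelled with 1 male, all from D1 groups, 4 Y-linked genes together reached at most 0.0702 CPM, against at least 0.839 CPM in every other library with complete labels, so the files go against the labelled sexes there. Library names start with 1 of 4 codes (BdP, EM, JAG and OdP) that the labels do not explain. EM libraries are in all 5 groups, but OdP libraries are 8 of 16 in D2 dorsal and 5 of 14 in D2 ventral striatum and 1 elsewhere, so the comparisons were repeated among EM libraries alone. Between EM and OdP libraries of the same group, 19 of 72 members differed in D2 dorsal striatum (30.2% of all genes) and 11 of 72 in D2 ventral striatum (22.1% of all genes). In bulk RNA such as this, fewer cells of a type and less RNA per cell cannot be told apart.

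Most of the families were fully represented. Each of 71 members passed the filter on low values (at least 1 CPM in as many libraries as the smaller group holds) in all 6 pairwise comparisons, Hdac7, Hdac8 and Sirt4 passed it in some, and Dnmt3b, Dnmt3l and Hdac10 in none. Dnmt3b, a de novo methyltransferase of early development, had 266 reads over all libraries and none in 43 of the 79. Dnmt3l, its catalytically inactive partner, had 60 reads and none in 66 libraries. The methyltransferases that were measured well were Dnmt1, which copies methylation after replication, with group means of 14.6 to 21.9 CPM, and the de novo enzyme Dnmt3a, with group means of 28.9 to 51.6 CPM. Per kilobase of merged exon, Smarca2 (BRM, one of the paired ATPases of the SWI/SNF complex) had the highest level of all members in every group, from 38.1 CPM per kb in D1 dorsal striatum to 49.6 CPM per kb in D2 ventral striatum. Smarcd1, Smarcc2 and Hdac11 were also among the higher members, at 14.8 to 28.5 CPM per kb, in an order that changed from group to group.

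**Figure D1:**
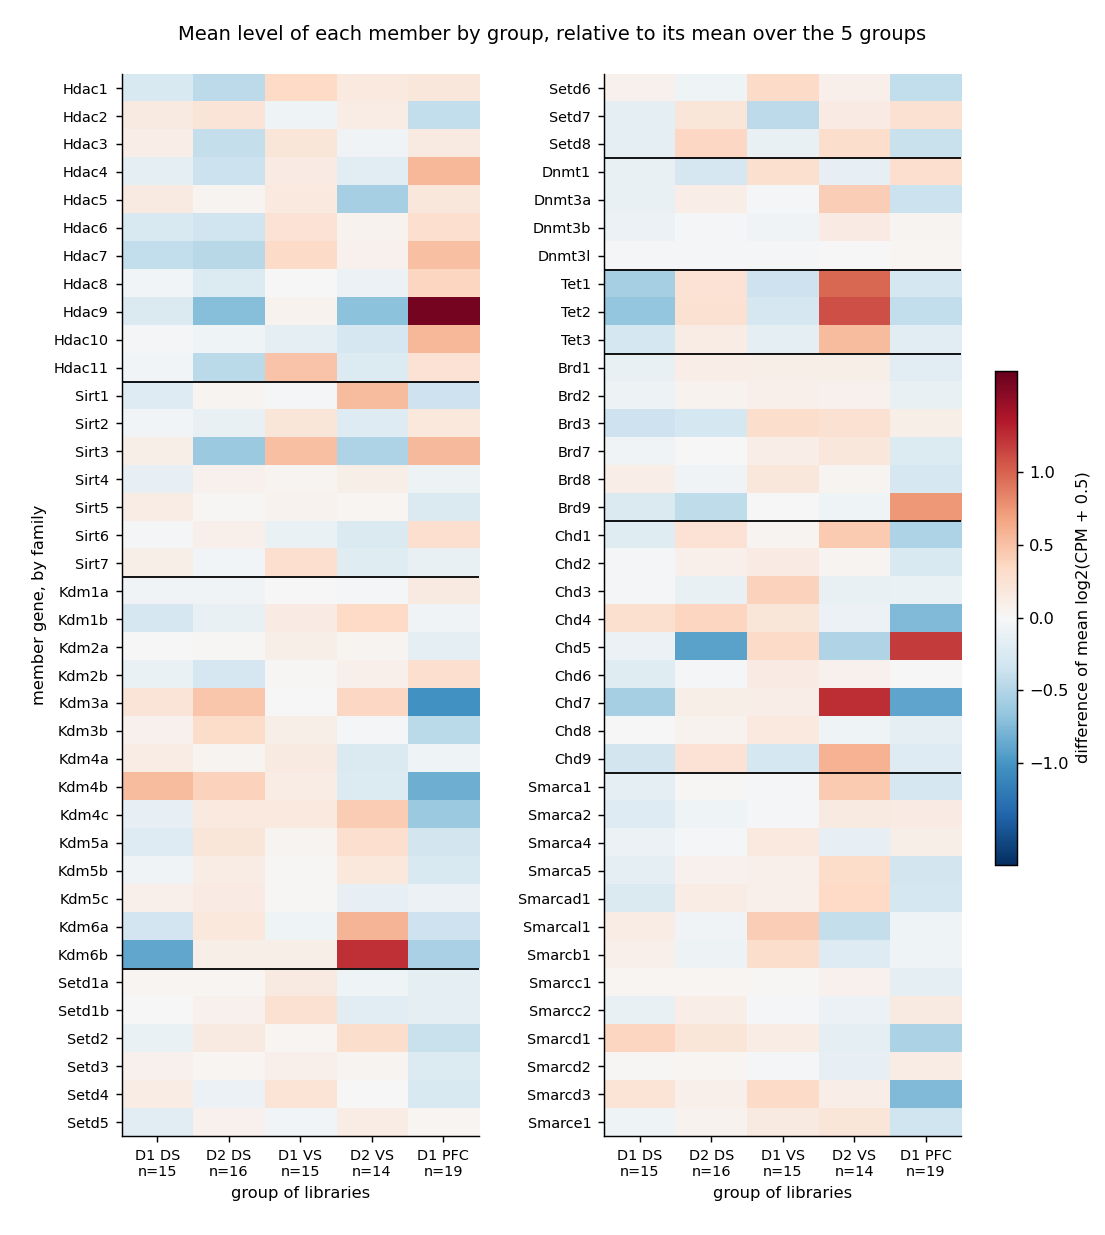
Mean log2(CPM + 0.5) of the members shown in the 5 groups (DS dorsal striatum, VS ventral striatum, PFC prefrontal cortex), as a difference from the member's mean over the groups, with families separated by lines. The highest cell is Hdac9 in prefrontal cortex (1.62), the lowest Kdm3a in prefrontal cortex (-1.03), and D2 ventral striatum stands out for Chd7 (1.26), Kdm6b (1.24) and Tet2 (1.10).

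Promoters of the genes on which the results below turn are printed here as 300 bases, 250 before and 50 after the RefSeq start (GRCm38.p6), 5′ to 3′ on the strand of the gene, with GC boxes (GGGCGG, searched on both strands, so also as CCGCCC) in capitals. RefSeq promoters were matched for 61 of the 77 members (89 starts). A GC box lay in 70.8% of these 89 windows and in 35.7% of all 32851 windows of the same length, and the median number of CpG dinucleotides was 24 against 7. Tet1, Tet2, Tet3 and Kdm6a are shown because all 4 were higher in D2 than in D1 neurons of both striatal regions. Chd5 and Hdac9 are shown because they were the members with the largest excess in prefrontal cortex; each has 2 listed starts, and the one farther upstream is given.
Tet1: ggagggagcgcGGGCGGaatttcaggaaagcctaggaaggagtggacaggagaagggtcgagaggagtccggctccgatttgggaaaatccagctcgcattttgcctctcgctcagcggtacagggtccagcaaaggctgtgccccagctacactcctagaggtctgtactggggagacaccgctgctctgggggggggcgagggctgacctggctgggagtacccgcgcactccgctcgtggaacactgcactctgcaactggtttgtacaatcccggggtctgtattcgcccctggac
Tet2: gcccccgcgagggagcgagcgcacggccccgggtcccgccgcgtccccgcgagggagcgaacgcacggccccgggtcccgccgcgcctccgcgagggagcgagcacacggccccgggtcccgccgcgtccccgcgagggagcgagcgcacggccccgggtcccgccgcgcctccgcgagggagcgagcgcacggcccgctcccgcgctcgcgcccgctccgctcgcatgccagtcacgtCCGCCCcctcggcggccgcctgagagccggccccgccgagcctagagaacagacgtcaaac
Tet3: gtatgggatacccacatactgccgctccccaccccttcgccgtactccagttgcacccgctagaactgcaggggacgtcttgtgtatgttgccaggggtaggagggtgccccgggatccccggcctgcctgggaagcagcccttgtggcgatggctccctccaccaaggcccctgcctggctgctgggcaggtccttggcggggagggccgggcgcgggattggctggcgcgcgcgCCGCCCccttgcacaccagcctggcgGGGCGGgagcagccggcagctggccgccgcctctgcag
Kdm6a: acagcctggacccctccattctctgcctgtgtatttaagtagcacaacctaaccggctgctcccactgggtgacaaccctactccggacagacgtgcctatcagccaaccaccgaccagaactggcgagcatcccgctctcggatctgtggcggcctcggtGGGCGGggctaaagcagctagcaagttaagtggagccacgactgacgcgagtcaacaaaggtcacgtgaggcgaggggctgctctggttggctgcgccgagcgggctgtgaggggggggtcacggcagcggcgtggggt
Chd5: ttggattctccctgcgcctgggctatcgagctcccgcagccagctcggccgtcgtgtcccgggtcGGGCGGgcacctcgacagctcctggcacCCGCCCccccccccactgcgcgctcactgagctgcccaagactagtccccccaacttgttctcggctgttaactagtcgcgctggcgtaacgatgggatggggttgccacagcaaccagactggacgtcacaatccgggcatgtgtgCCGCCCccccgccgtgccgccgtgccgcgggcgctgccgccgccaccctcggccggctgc
Hdac9: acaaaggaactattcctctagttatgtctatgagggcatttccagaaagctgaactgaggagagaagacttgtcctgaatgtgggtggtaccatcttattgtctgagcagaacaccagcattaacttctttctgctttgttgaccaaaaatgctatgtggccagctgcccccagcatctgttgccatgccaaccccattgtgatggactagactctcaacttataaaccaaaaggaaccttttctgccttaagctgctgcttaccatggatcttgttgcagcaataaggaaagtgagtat
The windows lie at chr10:62887275-62887574 (minus strand) for Tet1, chr3:133544341-133544640 (minus strand) for Tet2, chr6:83441629-83441928 (minus strand) for Tet3, chrX:18162325-18162624 (plus strand) for Kdm6a, chr4:152338401-152338700 (plus strand) for Chd5 and chr12:34917046-34917345 (minus strand) for Hdac9. In the GENCODE annotation Tet1 begins at chr10:62908996, Tet2 at chr3:133545139 and Tet3 at chr6:83459084, all on the minus strand. The printed windows of these genes therefore lie inside the genes as annotated there. The Tet2 window held 57 CpG dinucleotides, Chd5 32, Tet3 22, Kdm6a 21 and Tet1 17. The Hdac9 window was unlike them: it held 0 CpG dinucleotides and no GC box, and it held the letters TATAAA (searched on both strands, no overlap with a GC box), which 3.37% of the members' windows and 13.6% of all windows hold. Such matches describe the letters only.

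The first comparison asked how the neurons of the direct pathway (D1) differ from those of the indirect pathway (D2) in the dorsal striatum. D2 neurons carried more mRNA of all 3 Tet enzymes, of the histone H3 demethylases Kdm6b and Kdm6a, and of the remodelers Chd7, Chd9 and Chd1. D1 neurons carried more of the remodeler Chd5, the mitochondrial sirtuin Sirt3 and the deacetylases Hdac3, Hdac9 and Hdac11. Of 71 members tested, 20 differed (limma on log2(CPM + 0.5), adjusted p under 0.05), 5 higher and 15 lower in D1, against 25.9% of all genes tested; the members' median log2 difference was -0.07 and that of all genes 0.02. No member had groups without overlap (1.18% of all genes did). In the same test 12.8% of all genes were higher in D1 and 13% were lower.

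Tet2 had the smallest adjusted p of the members higher in D2 in this region. Its lowest, median and highest values were 11.4, 18.8 and 30.9 CPM in D1 dorsal striatum and 27.0, 38.4 and 62.3 CPM in D2 dorsal striatum, so the groups overlapped only between 27.0 and 30.9 CPM. The log2 difference (D1 minus D2) was -0.92 (SE 0.12, adjusted p = 1.0e-07 by limma). Tet1 ran from 7.17 through 9.11 to 15.997 CPM in D1 and from 11.2 through 18.9 to 30.5 CPM in D2. Tet1 thus overlapped more than Tet2, with a log2 difference of -0.80 (SE 0.14, adjusted p = 3.3e-05 by limma). Tet3 had the least separation of the family, 8.36, 27.1 and 31.0 CPM against 18.7, 33.9 and 44.9 CPM, with a log2 difference of -0.43 (SE 0.15, adjusted p = 0.032 by limma). Among libraries with the EM name code only, which keeps 11 of 15 D1 and 8 of 16 D2 libraries, the Tet3 difference was -0.47 and its call ended (adjusted p = 0.18 by limma), whereas Tet1 (-0.72) and Tet2 (-0.99) kept theirs.

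Kdm6b and Kdm6a remove the methyl groups that Polycomb repressive complexes put on histone H3. Kdm6b, which is induced by many stimuli, ran from 1.60 through 6.48 to 11.4 CPM in D1 dorsal striatum and from 6.19 through 14.5 to 16.6 CPM in D2 dorsal striatum. Its log2 difference was the most negative of the members (-0.99, SE 0.18, adjusted p = 5.2e-05 by limma), with some overlap between the groups. Kdm6a, the X-linked member of the pair (chrX:18162575-18279936), ran from 11.3 through 18.3 to 24.7 CPM in D1 and from 18.6 through 24.0 to 37.6 CPM in D2, and differed by -0.51 (SE 0.11, adjusted p = 0.00062 by limma). Both kept their calls among EM libraries (-1.04 and -0.46). Of the other members lower in D1, Chd7 (-0.66) and Chd9 (-0.55) belong to 1 subfamily of remodelers, and Setd8 (-0.50; Kmt5a in the current annotation) puts a single methyl group on histone H4. Chd1, Kdm5a, Setd7, Smarcad1, Smarcc2 and Brd1 were also lower in D1, with log2 differences from -0.46 to -0.24. Of these 6, Chd1 kept its call among EM libraries, whereas Kdm5a, Setd7, Smarcad1, Smarcc2 and Brd1 did not (log2 differences from -0.35 to -0.17, adjusted p from 0.059 to 0.19 by limma).

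Chd5, a remodeler of the NuRD type found mainly in neurons, was the member highest in D1 relative to D2. Its lowest, median and highest values were 23.5, 37.0 and 51.2 CPM in D1 dorsal striatum and 7.26, 22.3 and 31.3 CPM in D2, and 10 of the 15 D1 libraries lay above every D2 library. The log2 difference was 0.81 (SE 0.14, adjusted p = 3.9e-05 by limma). Sirt3, a deacetylase of mitochondria, ran from 4.87 through 9.38 to 15.4 CPM in D1 and from 2.44 through 5.23 to 10.1 CPM in D2 (log2 difference 0.73, SE 0.18, adjusted p = 0.0024 by limma). Of its exon bases 12.4% are shared with genes on the other strand, and whether the counting used strand is not given in the sources used here, so part of the Sirt3 signal may belong to those genes. The same limit holds for Hdac11 (26.0% of exon bases shared with other genes), Smarcd1 (14.2%) and Kdm2b (16.2%). Setd1a shares 53.7% of its exon bases, mostly with a gene on the same strand. Hdac3, the enzyme of the NCoR corepressor, had a log2 difference of 0.51 (SE 0.14, adjusted p = 0.0077 by limma), but among EM libraries 0.37 (adjusted p = 0.20 by limma). Hdac11, the class IV deacetylase, likewise went from 0.40 to 0.33 and lost its call there (adjusted p = 0.13 by limma).
The summed level of 5 cortical glutamatergic markers was also higher in D1 than in D2 libraries, 33.2 to 140 CPM (median 101 CPM) against 1.56 to 37.1 CPM (median 8.17 CPM) in the dorsal striatum, with all 5 markers called and Neurod2 at 0 in 1 D2 library. In prefrontal cortex that sum was 565 to 922 CPM, and Chd5 and Hdac9 were highest there. The part of such RNA in the D1 excess of Chd5 and Hdac9 was not tested. Summed GABA interneuron markers (4 genes) were 13.1 to 55.9 CPM in D1 and 3.20 to 22.9 CPM in D2 dorsal striatum, with all 3 that were tested called higher in D1. Summed cholinergic markers (3 genes) moved the other way, 0.365 to 1.59 CPM in D1 and 2.89 to 14.2 CPM in D2 dorsal striatum, and summed oligodendrocyte markers (4 genes) were 39.8 to 133 CPM and 54.4 to 150 CPM; their part was not tested either.

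In the ventral striatum the same direction of difference returned for the Tet enzymes, Kdm6a, Kdm6b, Chd7 and Chd9, and more members differed on the D1 side. Of 72 members tested, 36 differed, 18 in each direction, against 47.7% of all genes (24.1% higher and 23.6% lower in D1). The median log2 difference was 0.05 for the members and 0.02 for all genes. Scaled to the reads in genes instead of the authors' total, 25 members were higher and 12 lower, beside 3702 and 1898 of all genes, whose median moved to 0.13. Tet1 and Hdac9 were the members whose D1 and D2 libraries did not overlap at all (1.34% of all genes did not).

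Tet1 ran from 7.46 through 11.6 to 20.1 CPM in D1 ventral striatum and from 21.5 through 28.0 to 65.1 CPM in D2 ventral striatum. Every D2 library lay above every D1 library, and the log2 difference was -1.33 (SE 0.13, adjusted p = 1.1e-09 by limma). Tet2 ran from 20.5 through 24.4 to 49.4 CPM in D1 and from 39.03 through 62.2 to 122 CPM in D2. The overlap of Tet2 was between 39.03 and 49.4 CPM, and its log2 difference was -1.37 (SE 0.15, adjusted p = 1.1e-08 by limma). Within the D2 group Tet2 was higher in the 8 EM libraries (mean 87.5 CPM) than in the 5 OdP libraries (mean 53.7 CPM), and among EM libraries alone the D1 minus D2 difference was -1.599. Tet3 ran from 21.1 through 25.4 to 38.6 CPM in D1 and from 28.8 through 38.1 to 73.2 CPM in D2, and differed by -0.70.
Chd7, the remodeler whose human gene is mutated in CHARGE syndrome, was low in all groups but showed a difference of similar size. Its values were 2.84, 4.15 and 6.33 CPM in D1 and 4.89, 10.4 and 18.4 CPM in D2 ventral striatum (log2 difference -1.14, SE 0.16, adjusted p = 1.1e-06 by limma). Kdm6b, at -1.14, and Chd9, at -0.89, followed. Within D2 ventral striatum Chd7 averaged 13.6 CPM in EM and 6.75 CPM in OdP libraries, and Kdm6b 39.3 and 20.5 CPM. Sirt1 (-0.56), the nuclear sirtuin, Smarca1 (-0.48), an ISWI ATPase, and Dnmt3a (-0.44) were among the members that were lower in D1 here and not called in the dorsal striatum. Scaled to the reads in genes, Dnmt3a lost its call (-0.33, adjusted p = 0.059 by limma). Dnmt3a averaged 61.7 CPM in EM and 40.1 CPM in OdP libraries of D2 ventral striatum, and among EM libraries its difference was -0.66.

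On the D1 side of the ventral striatum, Sirt3 ran from 8.74 through 14.1 to 15.2 CPM in D1 and from 2.31 through 5.56 to 12.0 CPM in D2 (log2 difference 1.04, SE 0.16, adjusted p = 6.0e-06 by limma). With the percentage of a library's total that fell in genes as a covariate, the Sirt3 difference was 0.44 and its call ended (adjusted p = 0.097 by limma). That percentage itself differed between the groups, 35.1 ± 1.6 (SD) in D1 and 38.0 ± 1.5 in D2 ventral striatum. This covariate therefore cannot be fully told apart from the receptor. Chd5 was at 40.4, 48.5 and 58.6 CPM in D1 and 10.6, 29.5 and 40.4 CPM in D2, so 14 of the 15 D1 libraries lay above every D2 library (log2 difference 0.83, SE 0.13, adjusted p = 4.8e-06 by limma). Smarcal1, an annealing helicase that restarts stalled replication forks, was at 19.6, 24.3 and 31.1 CPM in D1 and 5.90, 13.8 and 22.0 CPM in D2 (log2 difference 0.83, SE 0.12, adjusted p = 2.4e-06 by limma). Hdac9, a class IIa deacetylase, had 8.34 CPM in its lowest D1 library and 8.18 CPM in its highest D2 library, a difference of 0.76. Hdac5 (0.74), also of class IIa, Hdac11 (0.72), the NuRD ATPases Chd3 (0.51) and Chd4 (0.31), Smarcb1 (0.52), Sirt7 (0.49), Sirt2 (0.42) and Dnmt1 (0.41) were also higher in D1. With that covariate 13 of the 36 calls remained, while calls over all genes fell from 47.7% to 10.7%: of the genes just listed Chd3 kept its call, and Hdac5, Hdac11, Chd4, Smarcb1, Sirt7, Sirt2 and Dnmt1 lost theirs (adjusted p from 0.078 to 0.56 by limma), as did Sirt1 and Smarca1 on the D2 side. Sirt7 also lost its call among EM libraries (0.26, adjusted p = 0.093 by limma). The D1 and D2 libraries differed as well in their cortical glutamatergic sum (18.1 to 115 CPM against 3.92 to 84.5 CPM), their cholinergic sum (0.559 to 2.69 CPM against 6.63 to 15.1 CPM) and their oligodendrocyte sum (36.2 to 52.9 CPM against 40.7 to 141 CPM, 1 of 2 tested markers called); their part was not tested.

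**Figure D2:**
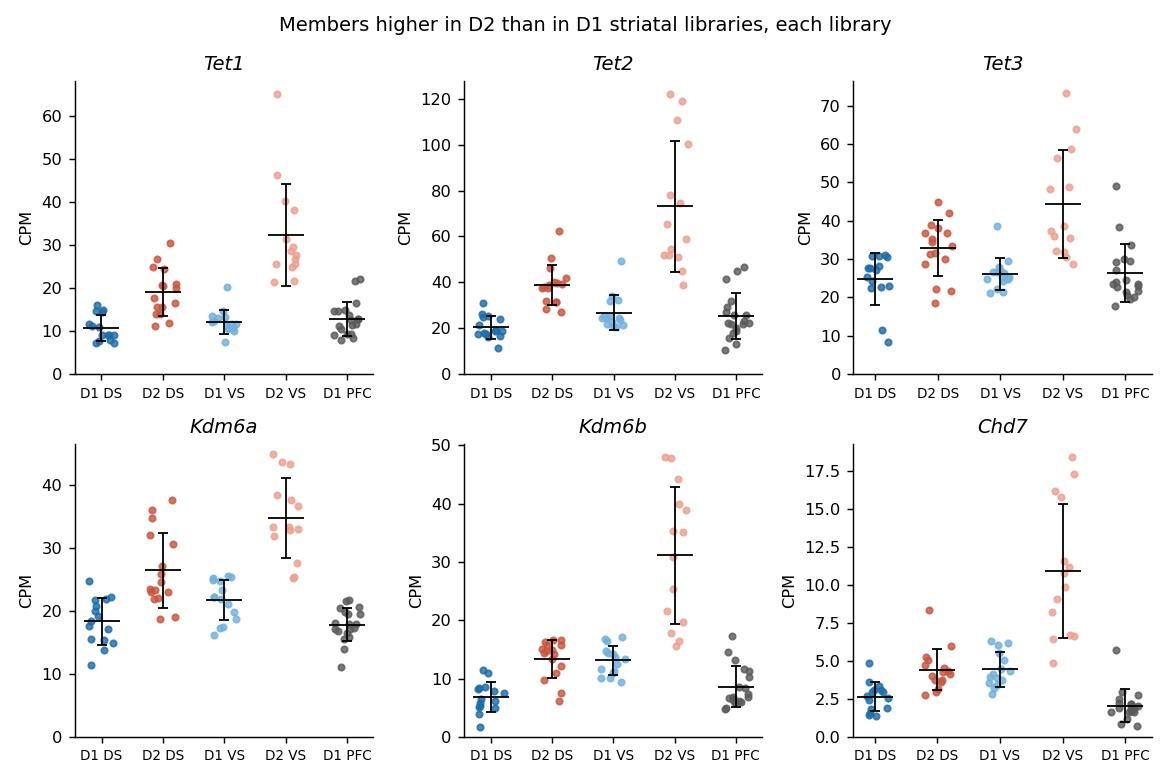
CPM of Tet1, Tet2, Tet3, Kdm6a, Kdm6b and Chd7 in each library (points) by group, with the mean and SD of the group (bars). In each panel the D2 libraries lie above the D1 libraries of their region on average, and D2 ventral striatum is the highest group (Tet2 mean 73.1 CPM).

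Of the 20 members called in the dorsal striatum, 17 were also called in the ventral striatum (85% of the first list, 47.2% of the second), and all 17 had the same direction: Chd5, Sirt3, Hdac3, Hdac9 and Hdac11 higher in D1, and the other 12 lower. Over all genes the overlap was 73.5% of the first list and 38.8% of the second, and 99.1% of the shared genes had the same direction. Among EM libraries 11 of the 17 kept both calls, and with the percentage in genes as a covariate 9 did. How many of all shared genes kept both calls was not counted. Whether the receptor difference itself differed between the regions was tested by an interaction contrast over the 4 striatal groups. It called 1 member of 73, Smarcal1, which was lower, against 2.64% of all genes (1.93% higher and 0.707% lower). Smarcal1 had a receptor difference of 0.19 in the dorsal striatum (medians of 20.7 CPM in D1 and 17.4 CPM in D2) and of 0.83 in the ventral striatum, an interaction of -0.64 (SE 0.16, adjusted p = 0.013 by limma). For Tet1 and Tet2, whose D2 excess was larger in the ventral striatum, the interaction was 0.53 (SE 0.20, adjusted p = 0.15 by limma) and 0.46 (SE 0.20, adjusted p = 0.24 by limma), so a regional difference of their receptor effect did not pass the test. At an unadjusted p under 0.05 the interaction held for 17 of 73 members (23.3%) and for 14.9% of all genes.

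**Figure D3:**
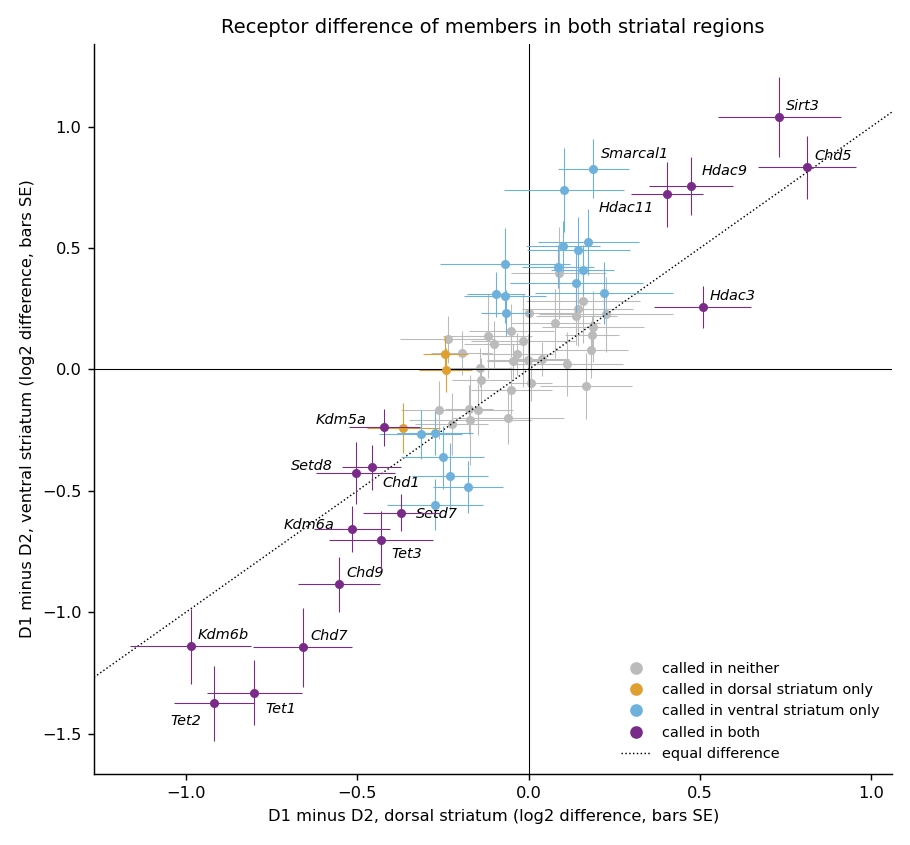
Log2 difference D1 minus D2 (with SE) of the members shown, all tested in both regions, dorsal striatum on the horizontal and ventral striatum on the vertical axis, coloured by where limma called it, with the line of equal differences dotted. The members called in both regions lie at the lower left and the upper right, and Smarcal1 lies above the line (0.19 and 0.83).

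The next comparisons asked how neurons of 1 kind differ between the dorsal and the ventral striatum. In D1 neurons Kdm6b, Chd7, Brd3, Hdac1 and Hdac11 were lower in the dorsal than in the ventral striatum, and Kdm4b and Setd7 were higher. Of 71 members tested 30 differed, 2 higher and 28 lower in dorsal striatum, against 34.6% of all genes (10.1% higher and 24.5% lower). All genes were shifted in the same sense, with a median log2 difference of -0.12, and the members' median was -0.17. After median-ratio scaling, which takes this shift to -0.01, 16 members differed, 5 higher and 11 lower, beside 1663 and 1642 of all genes. With edgeR on the recovered reads 5 members were higher and 11 lower, beside 1745 and 1500 of all genes. More members were thus lower than higher under each of these scalings, but the size of that imbalance moved with the scaling. Of the 30, 12 were called under every alternative, among them Kdm6b, Chd7, Brd3, Hdac1 and Hdac11. That count was not made over all genes.

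Kdm6b ran from 1.60 through 6.48 to 11.4 CPM in D1 dorsal and from 9.48 through 13.4 to 17.1 CPM in D1 ventral striatum (log2 difference -0.98, SE 0.16, adjusted p = 1.1e-05 by limma). Brd3, a BET protein that binds acetylated histones, was the member whose regions separated most cleanly. In D1 neurons its highest dorsal value was 31.2 CPM and its lowest ventral value 31.4 CPM, with medians of 23.6 and 37.1 CPM (log2 difference -0.65, SE 0.07, adjusted p = 3.3e-09 by limma), and it alone among the members did not overlap (2.65% of all genes). Chd7 had medians of 2.71 and 4.15 CPM and overlapped from 2.84 to 4.85 CPM (-0.68, SE 0.14, adjusted p = 0.00022 by limma).
Kdm4b, a demethylase that acts on the heterochromatin mark of histone H3, went the other way, from 3.47 through 12.1 to 14.2 CPM in D1 dorsal and from 5.61 through 7.99 to 10.2 CPM in D1 ventral striatum. Its lowest dorsal library lay below every ventral one, and the difference of 0.41 (SE 0.13, adjusted p = 0.011 by limma) missed the threshold among EM libraries (0.39, adjusted p = 0.056 by limma). Setd7, a lysine methyltransferase of histones and other proteins, differed by 0.28 (SE 0.09, adjusted p = 0.0090 by limma).

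In D2 neurons Chd7, Kdm6b and the Tet enzymes were lower in the dorsal striatum, and Kdm4b, Hdac5 and Chd4 were higher. Here 18 of 72 members differed, 5 higher and 13 lower in dorsal striatum, against 28.5% of all genes (7.93% higher and 20.6% lower), with a median of -0.06 for the members and -0.12 for all genes. With median-ratio scaling 8 were higher and 6 lower (all genes 1398 and 1336), and with edgeR 8 and 7 (all genes 1357 and 1325). Chd7 ran from 2.77 through 4.20 to 8.38 CPM in dorsal and from 4.89 through 10.4 to 18.4 CPM in ventral striatum (log2 difference -1.16, SE 0.17, adjusted p = 1.2e-06 by limma). Kdm6b ran from 6.19 through 14.5 to 16.6 CPM and from 15.6 through 33.1 to 48.0 CPM (-1.13, SE 0.17, adjusted p = 2.3e-06 by limma), overlapping only between 15.6 and 16.6 CPM. Its size differed by name code, -1.503 among EM and -0.63 among OdP libraries, and both passed the test (adjusted p = 5.8e-06 and 0.022 by limma). The differences of Chd7 (-1.29 and -0.81), Tet2 (-0.998 and -0.57) and Tet1 (-0.90 and -0.51) were likewise larger among EM than among OdP libraries and were called in both; the difference between the codes was not tested.
Tet2 was lower in dorsal than in ventral D2 libraries by 0.84 (SE 0.15, adjusted p = 4.0e-05 by limma), Tet1 by 0.73 and Tet3 by 0.40. The Tet3 call ended with edgeR (-0.28, adjusted p = 0.14), with median-ratio scaling (-0.27, adjusted p = 0.14 by limma), with scaling to reads in genes (adjusted p = 0.081 by limma) and among OdP libraries (-0.18, adjusted p = 0.40 by limma). Chd4, the main ATPase of NuRD, ran from 54.6 through 92.8 to 115 CPM in dorsal and from 37.6 through 65.4 to 96.2 CPM in ventral D2 libraries (log2 difference 0.47, SE 0.10, adjusted p = 0.00052 by limma). Kdm4b (0.63, SE 0.19, adjusted p = 0.013 by limma) and Hdac5 (0.62, SE 0.22, adjusted p = 0.031 by limma) lost their calls among EM libraries (0.47 and 0.32, adjusted p = 0.25 and 0.51 by limma). Brd3 again did not overlap between the regions (dorsal up to 28.6 CPM, ventral from 28.9 CPM; 1.46% of all genes).
The D1 and the D2 lists shared 8 members, 26.7% of the first and 44.4% of the second: Kdm4b higher in dorsal striatum, and Brd3, Brd9, Chd7, Hdac1, Kdm6a, Kdm6b and Tet2 lower. Over all genes the overlap was 51.4% of the first list and 63.2% of the second. Of the 8, 5 kept both calls with edgeR and 5 with median-ratio scaling. Among EM libraries 3 did (Brd3, Chd7 and Kdm6b), and such counts were not made over all genes. Beside these differences, the summed D2 projection neuron markers were 40.1 to 101 CPM in D1 dorsal and 107 to 249 CPM in D1 ventral libraries. In D1 neurons the GABA interneuron sum was 13.1 to 55.9 CPM in dorsal and 5.82 to 33.3 CPM in ventral libraries (3 of 3 tested markers called higher in dorsal), the oligodendrocyte sum 39.8 to 133 and 36.2 to 52.9 CPM (2 of 2 called higher), and the cortical glutamatergic sum 33.2 to 140 and 18.1 to 115 CPM (2 of 5 called higher). In D2 neurons the D2 projection neuron sum was 2585 to 4525 CPM in dorsal and 1545 to 2758 CPM in ventral libraries and that of markers shared by striatal projection neurons 2055 to 3902 and 1319 to 2244 CPM (5 of 5 called higher in each list). The D1 projection neuron sum in D2 neurons was 19.7 to 98.8 CPM in dorsal and 29.6 to 82.9 CPM in ventral libraries (3 of 5 called lower), and 1 of 4 oligodendrocyte markers was called higher. In D1 neurons 4 of 5 of the shared striatal markers were called higher in dorsal libraries, and of the D1 markers 3 were higher and 1 lower. The choroid plexus sum (3 genes) was 0.589 to 41.4 CPM in D1 dorsal and 2.61 to 5.20 CPM in D1 ventral libraries (1 of 1 tested marker called lower in dorsal). For D2 neurons that sum was 1.33 to 37.6 CPM in dorsal and 2.41 to 5.97 CPM in ventral libraries (1 called higher and 1 lower). In D2 neurons the GABA interneuron sum was 3.20 to 22.9 CPM in dorsal and 5.98 to 25.5 CPM in ventral libraries (2 of 3 called lower in dorsal), and the cholinergic sum was 2.89 to 14.2 CPM in D2 dorsal and 6.63 to 15.1 CPM in D2 ventral libraries; their part was not tested.

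The last pair of comparisons set D1 prefrontal cortex against the D1 striatum. Hdac9, Chd5 and Brd9 were far higher in the cortex, and Kdm3a, Kdm4b, Chd4, Smarcd3 and Smarcd1 far lower, against both striatal regions. Against dorsal striatum 39 of 72 members differed, 19 higher and 20 lower in cortex, beside 54.8% of all genes (32.3% higher and 22.5% lower); the median was -0.10 for members and 0.05 for all genes. With median-ratio scaling 15 members were higher and 28 lower (all genes 3346 and 3160), and with edgeR 15 and 33 (all genes 3119 and 3472). Against ventral striatum 53 of 74 differed, 9 higher and 44 lower, beside 62.8% of all genes (27.7% higher and 35.1% lower); the medians were -0.26 and -0.07. All 5 cortical glutamatergic, all 4 GABA interneuron and all 4 astrocyte markers were higher in the cortex libraries, and all 5 striatal projection neuron markers lower, so the groups differ in neuron type as well as in region, and the 2 cannot be told apart. Of oligodendrocyte markers, 2 of 2 tested were called lower in cortex against dorsal and 1 of 2 against ventral striatum. The 1 choroid plexus marker tested was called lower against ventral striatum. The part of such RNA was not tested.

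Hdac9 had the largest difference of any member. It ran from 24.5 through 32.1 to 46.0 CPM in prefrontal cortex, from 4.49 through 9.10 to 11.4 CPM in D1 dorsal striatum and from 8.34 through 9.88 to 17.2 CPM in D1 ventral striatum, so no cortical library overlapped a striatal one. The log2 differences were 1.87 (SE 0.10, adjusted p = 3.4e-20 by limma) and 1.57 (SE 0.09, adjusted p = 5.0e-19 by limma). In all, 6 members had no overlap against dorsal striatum (Hdac9, Chd5, Brd9, Smarcd3, Chd4 and Kdm3a; 10.5% of all genes) and 6 against ventral striatum (Hdac9, Brd9, Setd7, Kdm4c, Chd4 and Smarcd3; 12.6% of all genes).
Chd5 ran from 55.4 through 92.5 to 103 CPM in the cortex, above every D1 dorsal library (at most 51.2 CPM) and overlapping D1 ventral striatum only between 55.4 and 58.6 CPM. Its log2 differences were 1.295 (SE 0.09, adjusted p = 5.7e-16 by limma) and 0.86 (SE 0.07, adjusted p = 5.2e-15 by limma). Brd9, the bromodomain subunit of the non-canonical SWI/SNF complex, ran from 14.3 through 17.2 to 22.8 CPM in the cortex and overlapped neither region (at most 13.4 CPM in dorsal and 12.5 CPM in ventral striatum; log2 differences 0.98, SE 0.08, adjusted p = 1.1e-14, and 0.74, SE 0.07, adjusted p = 7.9e-12, both by limma).
Setd7 (0.42 and 0.70) and Hdac4, also a class IIa deacetylase (0.71 and 0.43), were also higher in the cortex against both regions, as were Kdm2b, Sirt6 and Smarcc2.

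Chd4 and Smarcd3 were the counterparts of these genes in the striatum. Chd4 ran from 31.5 through 41.6 to 48.3 CPM in the cortex, from 54.4 through 85.0 to 94.4 CPM in D1 dorsal striatum and from 61.8 through 83.0 to 96.6 CPM in D1 ventral striatum, again without overlap. Its log2 differences were -1.03 (SE 0.07, adjusted p = 6.6e-16 by limma) against dorsal and -0.96 against ventral striatum. Smarcd3 (BAF60c, a SWI/SNF subunit with tissue-specific use) was at 11.1, 17.7 and 24.7 CPM in the cortex, below every D1 dorsal (28.4 CPM and up) and every D1 ventral library (30.4 CPM and up). Its log2 differences were -0.98 and -1.08 (SE 0.08, adjusted p = 6.5e-15 by limma, for the ventral striatum). Of Smarcd3's exon bases 33.0% are shared with Chpf2 on the other strand, so its level is uncertain.
Kdm3a, a demethylase of the heterochromatin mark that also acts with hormone receptors, ran from 9.04 through 12.0 to 21.6 CPM in the cortex and from 22.4 through 29.0 to 49.1 CPM in D1 dorsal striatum, with no overlap (log2 difference -1.25, SE 0.11, adjusted p = 1.7e-12 by limma; -1.02, SE 0.11, adjusted p = 1.0e-10 against ventral striatum). Kdm4b was at 2.41, 3.87 and 5.81 CPM in the cortex and at 3.47, 12.1 and 14.2 CPM in D1 dorsal striatum, overlapping between 3.47 and 5.81 CPM, and the difference was -1.36 (SE 0.13, adjusted p = 6.0e-12 by limma). Chd7 was lower in cortex than in ventral striatum by 1.01 (SE 0.15, adjusted p = 1.2e-07 by limma) but was not called against dorsal striatum. None of the 3 Tet enzymes was called in either cortical comparison: their log2 differences ran from 0.11 to 0.26 against dorsal and from -0.14 to 0.06 against ventral striatum.

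**Figure D4:**
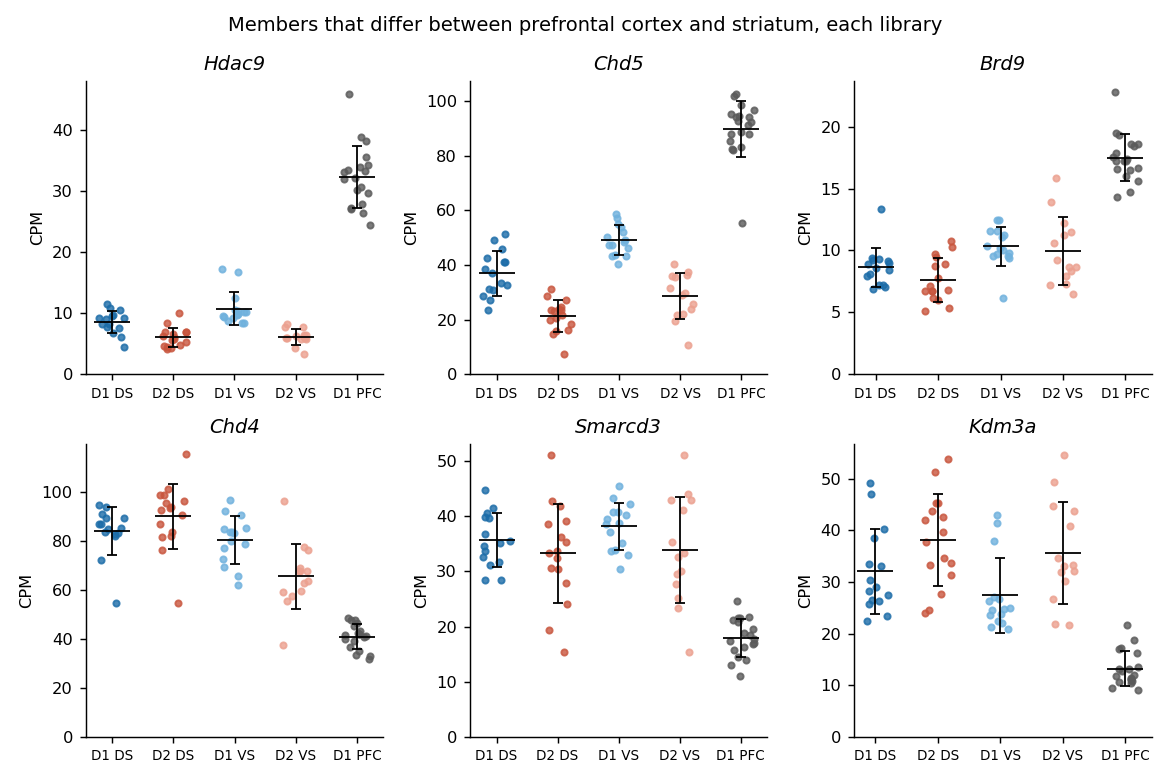
CPM of Hdac9, Chd5, Brd9, Chd4, Smarcd3 and Kdm3a in each library (points) by group, with the mean and SD of the group (bars). Hdac9, Chd5 and Brd9 are highest in prefrontal cortex (medians 32.1, 92.5 and 17.2 CPM) and Chd4, Smarcd3 and Kdm3a are lowest there (medians 41.6, 17.7 and 12.0 CPM).

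In ratios of related members within a library the scaling cancels, apart from the 0.5 CPM added to each value, which counts most for low genes such as Hdac1. For this, 15 pairs were compared in each of the 6 comparisons (2-sided permutation test, 100000 resamples, Benjamini-Hochberg over all 90 tests). The ratio differed in 45 of the 90 tests, and in 6 of them the groups did not overlap. No such share was computed for pairs of other genes. Of single genes, 25.9% to 62.8% were called in the same comparisons. The largest shift was in the class IIa deacetylases: the mean log2 ratio of Hdac9 to Hdac5 was -0.06 ± 0.25 (SD) in prefrontal cortex, -1.90 ± 0.33 in D1 dorsal and -1.61 ± 0.43 in D1 ventral striatum, a difference of 1.84 and 1.55 (permutation test, adjusted p = 0.00012, the smallest that these resamples give after adjustment). The NuRD ATPases shifted in both directions at once. Chd3 to Chd5 was lower in the cortex by 1.37 against dorsal and 1.36 against ventral striatum, while Chd3 to Chd4 was higher by 0.95 and 0.47 (each with a permutation test, adjusted p = 0.00012). The core subunits Smarcc1 and Smarcc2 shifted less but very evenly, from a log2 ratio of -0.83 ± 0.12 (SD) in D1 dorsal striatum to -1.30 ± 0.10 in the cortex, with no overlap.
Between D1 and D2 neurons the largest shift was that of Dnmt1 to Dnmt3a, -0.74 ± 0.28 (SD) in D1 and -1.59 ± 0.51 in D2 ventral striatum, a difference of 0.85 (permutation test, adjusted p = 0.00012) that was 1.16 among EM libraries. In the dorsal striatum the same ratio differed by 0.39 (permutation test, adjusted p = 0.026), and among EM libraries by 0.46 (permutation test, adjusted p = 0.12). The D2 level of Dnmt1 to Dnmt3a moved with the name code. Among EM libraries its mean was -1.47 in D2 dorsal and -1.94 in D2 ventral striatum. Among OdP libraries it was -1.39 and -1.17, so the order of the D2 regions turned. Tet2 rose relative to Tet3 in D2 neurons, by 0.49 in dorsal and 0.67 in ventral striatum, but among EM libraries, where the shifts were 0.52 and 0.73, neither passed the test (permutation test, adjusted p = 0.16 and 0.078).
Between striatal regions, Kdm6a to Kdm6b was higher in the dorsal striatum by 0.73 in D1 and 0.74 in D2 neurons (permutation test, adjusted p = 0.00012 and 0.0081), and Hdac1 to Hdac2 was lower by 0.83 and 0.70 (permutation test, adjusted p = 0.00057 and 0.027). In D2 neurons the shift of Kdm6a to Kdm6b was 1.03 among EM and 0.29 among OdP libraries, and that of Hdac1 to Hdac2 did not pass the test among EM libraries (-0.66, permutation test, adjusted p = 0.30).

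**Figure D5:**
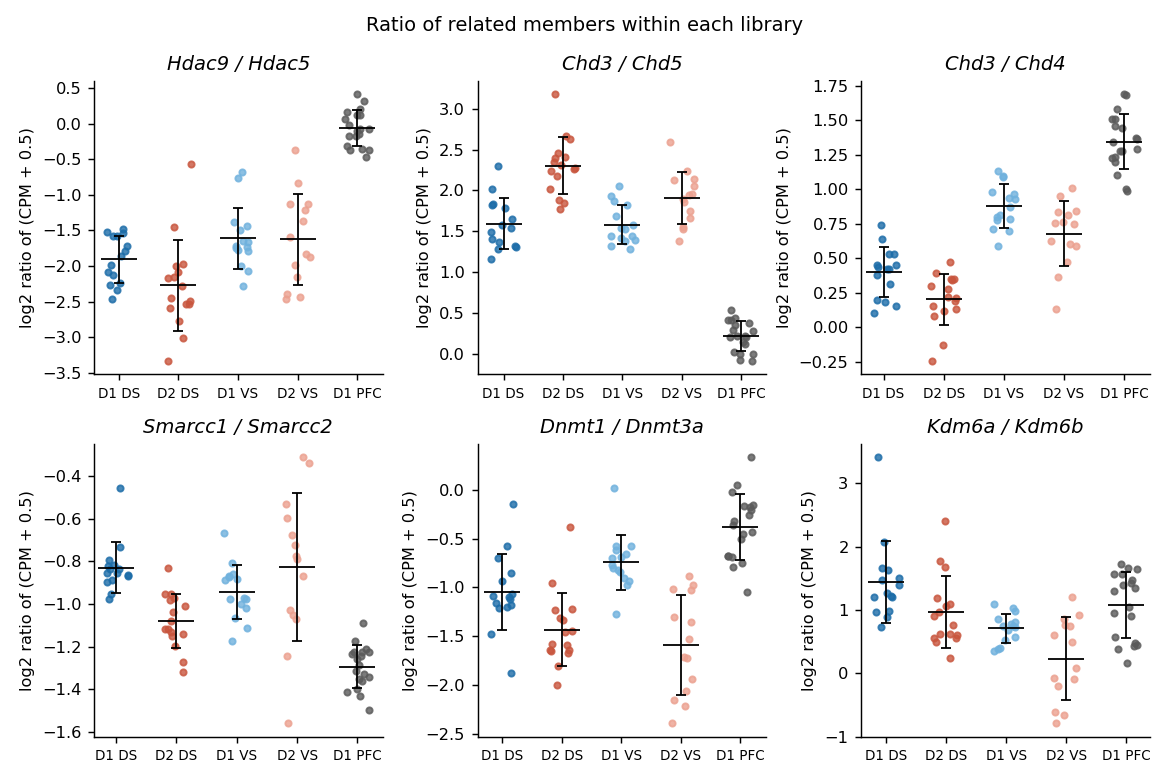
Log2 ratio of (CPM + 0.5) of related members in each library (points) by group, with mean and SD (bars). Hdac9/Hdac5 is near 0 in prefrontal cortex (mean -0.06) and below it in the striatal groups, Chd3/Chd5 is lowest and Chd3/Chd4 highest in prefrontal cortex, and Dnmt1/Dnmt3a is lowest in D2 ventral striatum (mean -1.59). Among OdP libraries alone Dnmt1/Dnmt3a is lower in D2 dorsal (mean -1.39) than in D2 ventral striatum (mean -1.17).

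The partners of the members were read from 7 lists with 127 genes in all: histone acetyltransferases, other histone methyltransferases, Polycomb proteins, the remaining SWI/SNF subunits, corepressor and NuRD subunits, methyl-CpG readers with DNA demethylation helpers, and other remodelers. In D1 against D2 dorsal striatum 37 of 119 tested differed (31.1%, 9 higher and 28 lower), beside 25.9% of all genes (12.8% higher and 13% lower), and none of the 13 acetyltransferases was higher in D1 while 6 were lower, among them Kat2b (-0.87). Smyd2, a lysine methyltransferase, was higher in D1 there (1.04), as was Gadd45b (0.78), a helper of DNA demethylation, and the Polycomb subunit Pcgf3 was lower (-0.64). In the ventral striatum 52 of 121 differed (43%, 22 higher and 30 lower), beside 47.7% of all genes, with Gadd45b (0.98) and Gadd45g (0.84) higher in D1 and Ncoa2 (-0.70) and Bmi1 (-0.65) lower. Ezh2, named with Ezh1 after their values were seen, is a methyltransferase whose mark Kdm6a and Kdm6b remove. Ezh2 was lower in D1 in both regions (-0.48 and -0.59), and its relative Ezh1 was higher (0.44 and 0.43). Of 25 Polycomb genes tested, 2 were higher and 6 lower in D1 in dorsal striatum, and 5 and 8 in ventral striatum. A link between these genes was not tested.
Between dorsal and ventral striatum 39 of 119 differed in D1 neurons (32.8%, 2 higher and 37 lower; 34.6% of all genes) and 23 of 122 in D2 neurons (18.9%, 1 higher and 22 lower; 28.5% of all genes). All genes were shifted in the same sense, with a median of -0.12 in both. Among the companion genes Baz1a (0.56) and Gadd45a (0.49) were higher and Mta3 (-0.72) and Suv39h1 (-0.68) lower in D1 dorsal striatum, and Bcl11b (0.45) was higher and Bcl7c (-1.32) and Smyd2 (-1.11) lower in D2 dorsal striatum.
In prefrontal cortex against dorsal striatum 58 of 119 differed (48.7%, 19 higher and 39 lower; 54.8% of all genes). Against ventral striatum 90 of 119 differed (75.6%, 11 higher and 79 lower), beside 62.8% of all genes (27.7% higher and 35.1% lower), and 19 of 24 Polycomb genes were lower and none higher. Bcl11b, a SWI/SNF subunit that is also a striatal transcription factor and one of the marker genes, was lower in the cortex (-2.60 and -2.37), and so was Baz1a, an ISWI partner (-2.80 and -2.24). Smyd2 was higher in the cortex (1.73 and 1.31), as were Bcl7c against dorsal (1.85) and Gadd45a against ventral striatum (1.1999).

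Because 5 members lie on the X chromosome (Hdac6, Hdac8, Kdm5c, Kdm6a and Smarca1), pools with 2 males were compared with pools with 1 male, with group as a term (44 and 33 libraries with complete labels). No member of 74 was called by limma, against 0.0651% of all genes (0.0407% higher and 0.0244% lower), 5 (6.76%) had an unadjusted p under 0.05 beside 13.6% of all genes, and edgeR called 0. Kdm5c, which demethylates the promoter mark of histone H3 and is known to be expressed from both X chromosomes of females, differed by 0.07 (SE 0.07, adjusted p = 0.68 by limma), and Kdm6a, known to escape X inactivation likewise, by -0.11 (SE 0.06, adjusted p = 0.43 by limma). The Y-linked genes Ddx3y, Uty, Kdm5d and Eif2s3y had log2 differences of 0.53 to 1.00 and Xist of -0.58, none of them called. Without the 7 libraries whose Y-linked genes were near 0, the number of members called was again 0.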

How the data were processed

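Ribosome-bound mRNA from bacTRAP mice (translating ribosomes pulled down with an antibody to GFP) was amplified and sequenced as 50-base paired reads, per the labels' protocols. The values are CPM per gene as deposited by the authors. The submitters' processing notes name Trim Galore 0.4.2, cutadapt 1.9.1, FastQC, HISAT2 and the mouse build GRCm38; the counting program, its annotation and its use of strand are not given in the sources used here. The low values step by what 1 read is worth (0.0124 to 0.0466 CPM), and 100% of values in every library are whole multiples of it (tolerance 0.001), which gave 7.35 to 30.8 M reads in genes per library. Precision is lowest for members near 1 CPM in the shallowest library.

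Groups came from the labels. Each comparison was fitted over its own groups with limma 3.58.1 (R 4.3.3; trended variance) on log2(CPM + 0.5), for genes of at least 1 CPM in as many libraries as the smaller group has. Fold changes on this scale understate changes of low genes. The interaction used all 4 striatal groups, and p-values were adjusted by Benjamini-Hochberg over all genes tested, with calls at 0.05. Because the codes in the library names are spread unevenly over the groups, comparisons were repeated with EM libraries only and with the code as a covariate. Other alternatives were another pseudocount, no filter, median-ratio scaling, scaling to reads in genes, the percentage of the total in genes as a covariate, and edgeR 4.0.16 (quasi-likelihood, TMM) on the recovered whole reads. Leaving out the 4 libraries that agreed least with their group, OdP libraries only, and leaving out libraries with Y-linked genes near 0 were added after seeing the data. Ratios of related members were tested with scipy 1.17.1. The limma fit was also run on simulated data, for D1 against D2 in dorsal striatum and for prefrontal cortex against ventral striatum. That outcome is not given here. Promoters are from RefSeq, and exon overlaps from GENCODE on GRCm38.

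The rule for the members uses symbols and no measured value, but the members and lists were chosen with earlier results of these data known. Full values are given for the 3 largest called differences in each direction of each comparison where the group with more averaged 2 CPM or above, for Kdm5c and Kdm6a in the comparison of sexes, for the 3 largest shifts of ratios each way and for the 2 largest companion genes each way; other members appear with fewer values. A member that counts in the totals is not reported here by itself, in the text or the figures.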

Additional observations from a re-analysis of the deposited data

Results flagged for a closer look

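Smarcal1 was the member whose D1 minus D2 difference itself differed between the regions. The log2 difference was 0.19 in the dorsal and 0.83 in the ventral striatum, and the interaction was -0.6377 (SE 0.16, adjusted p = 0.013 by limma over the 4 striatal groups). In the ventral striatum the D2 libraries ran from 5.90 to 22.0 CPM and the D1 libraries from 19.6 to 31.1 CPM, whereas in the dorsal striatum the ranges were 9.87 to 32.2 CPM and 14.0 to 24.1 CPM. The interaction kept its sign and its call under every alternative run, from -0.57 to -0.85.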

How the results depend on the processing

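Members called in D1 against D2 dorsal striatum numbered 20, but 11 among EM libraries and 13 with the name code as a covariate (all genes 2871, 1389 and 1658). In the ventral striatum 36 became 14 with the percentage of the total in genes as a covariate (all genes 5443 and 1218), and there Kdm3a (0.00191) and Setd2 (0.0592) changed sign, neither of them called. On average that percentage was itself higher in the D2 than in the D1 libraries there. Between the striatal regions, 30 in D1 neurons became 16 with edgeR and 16 with median-ratio scaling (all genes 3918, 3245 and 3305), and 18 in D2 neurons became 10 among EM libraries (all genes 3189 and 2238). The interaction called 1 member, but 2 without the filter, 3 with the name code, 3 scaled to reads in genes and 2 with that covariate (all genes 313, then 305, 480, 310 and 357). The comparison of sexes called 0, but 1 among EM libraries and 1 with the name code (all genes 8, 225 and 215). Without the 4 libraries that agreed least with their group, 23, 34, 20, 46 and 54 members were called in the 5 comparisons of 2 groups that hold any of them (all genes 3398, 4833, 3491, 6933 and 7523), 1 in the interaction (384) and 0 in the comparison of sexes (0). The cause was not tested in these cases; EM libraries alone are also fewer. Called under every alternative were 11 of 20, 12 of 36, 12 of 30, 6 of 18, 29 of 39 and 45 of 53 members, in the order of the report. These counts were not made over all genes, so they do not rank the members against other genes. Ratios of related members passed in 45 of 90 tests, and in 30 among EM libraries, with no share of other gene pairs computed. No fit with a replicate block was run: the numbers in the library names run on across regions, but no label says which libraries share mice.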
